A study of Drosophila melanogaster with 10 samples.

Results

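Transcripts of 10 Drosophila genes that encode insulin-like and other neurosecretory peptides were examined in fly heads over the day. The genes were chosen by name (Ilp2, Ilp3, Ilp5, Dh44, Crz, Lk, Tk, SIFa, Mip and Capa), and each was looked up by its symbol in the array's annotation. Of the 10, 8 had a probe set (a group of short probes for 1 transcript), 1 each, among 11982 genes named on the array. Ilp3 and Tk have no named probe set here and were not analysed. The heads came from flies of the yw strain, the only genotype in the series. All 10 array titles read Control, and no treatment is named in the sources used here. RNA was hybridised to 10 Affymetrix arrays that cover 6 times of day (ZT, zeitgeber time) spaced 4 hours apart. There were 3 arrays at ZT3 and 3 at ZT15, with a single array at each of the other 4 times (ZT7, ZT11, ZT19, ZT23), whose values carry no replicate error. The sources used here do not state the age or sex of the flies, the light schedule, or whether arrays of 1 time are separate collections of flies. The p-values therefore reflect the spread between these arrays alone, which may be technical.

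Neurosecretory cells make peptides from larger precursor proteins, store them in dense-core vesicles and release them into the circulation or within the brain. In the fly, insulin-producing cells of the pars intercerebralis, a dorsal midline region of the brain, release insulin-like peptides that act on the insulin receptor InR and link nutrition to growth, circulating sugar and lifespan. Neighbouring peptide cells of the same region express Dh44 or SIFa and connect feeding and sleep circuits, and Dh44 cells are known as an output of the circadian clock to rest and activity. In whole heads such cells are few, and a lower value from fewer cells of a type cannot be told apart from one due to less RNA per cell.

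Each level is the natural log of a deposited value and is read here as a GCRMA log2 value, so that a difference of 1 corresponds to a doubling. Read as plain intensities instead, the deposited values would give log2 differences 1.44 times as large. All 8 measured peptide genes passed the filter, a mean level of at least 4 over the 10 arrays, with means between 6.68 for Lk and 10.49 for Ilp2. Levels of different probe sets depend on their probes and are not set against each other.

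The arrays fell into 2 sets that cross the times of day, and every result below has to be read against them. Clustering over 12991 tested probe sets separated a set of 4 (ZT15 replicates 2 and 3, ZT3 replicates 1 and 2) from a set of 6, which holds 1 array of each time (ZT3 replicate 3, ZT7, ZT11, ZT15 replicate 1, ZT19 and ZT23). Pairs of arrays from the same set correlated at 0.968 to 0.992, and pairs from different sets at 0.720 to 0.830. Mean levels of 10 testis genes were 3.85 to 6.10 on the set of 4 and 10.63 to 11.76 on the set of 6, and those of 11 accessory gland genes were 3.99 to 4.36 on the set of 4 and 11.42 to 12.63 on the set of 6. Of the 11 accessory gland genes, 5 stayed under 4 on all arrays of the set of 4. Means of 7 gut genes were 10.72 to 11.84 on the set of 4 and 11.89 to 12.85 on the set of 6. For 7 fat body genes the means were 12.93 to 13.40 on the set of 4 and 12.19 to 12.56 on the set of 6. The samples are labelled as heads, which do not hold testis or accessory glands, so these levels on the set of 6 go against that label as the only tissue. Neural tissue was measured on all arrays: neuron markers averaged 10.03 to 10.32 on the set of 4 and 10.43 to 11.04 on the set of 6 (12 genes), and glia markers 11.57 to 11.69 on the set of 4 and 11.14 to 11.47 on the set of 6 (7 genes). The clock genes tim, per and vri were higher at ZT15 than at ZT3 on all arrays (limma, adjusted p 0.00252 each).

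The 2 insulin-like genes are encoded on chromosome arm 3L. In RefSeq's gene order (Release 6) Ilp1, Ilp2, Ilp3 and Ilp4 follow each other, and Ilp5 comes next after CG43897, whose span contains it. Ilp2 lies within the span of CG32052. The strand of these overlaps was not examined.

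Ilp2 encodes the insulin-like peptide most closely tied to sugar balance. The set of 4 had 11.22 and 11.10 at ZT15, against 10.84 and 11.01 at ZT3. On the set of 6 it was at 10.19 at ZT3, 9.87 at ZT7, 9.90 at ZT11, 10.18 at ZT15, 9.89 at ZT19 and 10.68 at ZT23. Every array of the set of 4 lay above every array of the set of 6, and ZT23 was the highest time within the set of 6.

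Ilp5 encodes an insulin-like peptide of the same cells, whose transcript is known to respond to feeding. The set of 4 had 10.14 and 9.98 at ZT15, against 9.29 and 9.50 at ZT3. On the set of 6 it was at 8.60 at ZT3, 8.39 at ZT7, 8.12 at ZT11, 8.75 at ZT15, 8.49 at ZT19 and 9.14 at ZT23. The ZT15 arrays were thus above the ZT3 arrays within each set, although over both sets the times overlapped, because ZT15 replicate 1 (8.75) lay below ZT3 replicates 1 and 2.

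Dh44 encodes a diuretic hormone related to corticotropin-releasing factor. The set of 4 had 8.89 and 8.77 at ZT15, against 8.84 and 8.99 at ZT3. On the set of 6 it was at 9.32 at ZT3, 9.28 at ZT7, 9.47 at ZT11, 9.31 at ZT15, 9.17 at ZT19 and 9.78 at ZT23. Dh44 was the one peptide gene of the 8 whose levels as deposited were lower on the set of 4 than on all arrays of the set of 6.

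SIFa encodes a peptide of a small group of pars intercerebralis neurons that send processes through most of the brain. Its levels on the set of 4 were 8.24 and 8.28 at ZT15, against 8.49 and 8.43 at ZT3. Within the set of 6 it was at 7.37 at ZT3, 6.78 at ZT7, 6.94 at ZT11, 7.17 at ZT15, 6.71 at ZT19 and 7.55 at ZT23. Both sets had SIFa lower at ZT15 than at ZT3, by about the same small amount.

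Crz encodes corazonin, a peptide of lateral neurosecretory cells that is related to vertebrate gonadotropin-releasing hormone and known for roles in stress and metabolism. Its levels on the set of 4 were 9.64 and 9.86 at ZT15, against 9.89 and 9.99 at ZT3. Within the set of 6 it was at 9.43 at ZT3, 9.26 at ZT7, 9.25 at ZT11, 9.47 at ZT15, 9.12 at ZT19 and 9.81 at ZT23. The ZT23 array reached into the range of the set of 4.

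Mip encodes myoinhibitory peptide, a ligand of the receptor SPR with a known role in sleep. Its levels on the set of 4 were 10.73 and 10.58 at ZT15, against 10.44 and 10.67 at ZT3. Within the set of 6 it was at 10.20 at ZT3, 10.10 at ZT7, 10.09 at ZT11, 10.24 at ZT15, 9.83 at ZT19 and 10.59 at ZT23. As for Crz, the 2 sets overlapped through the ZT23 array alone.

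Lk and Capa encode peptides that regulate the Malpighian tubules, the fly's renal organs. Lk, which encodes leucokinin, was on the set of 4 at 7.05 and 7.05 at ZT15, against 7.25 and 7.05 at ZT3, and on the set of 6 at 6.44 at ZT3, 5.91 at ZT7, 6.54 at ZT11, 6.49 at ZT15, 6.17 at ZT19 and 6.87 at ZT23. Capa, the precursor of CAPA peptides and a pyrokinin, was on the set of 4 at 9.29 and 9.20 at ZT15, against 9.37 and 9.52 at ZT3, and on the set of 6 at 8.76 at ZT3, 8.13 at ZT7, 8.60 at ZT11, 8.37 at ZT15, 8.21 at ZT19 and 8.94 at ZT23. Both genes were lowest at ZT7 and highest at ZT23 within the set of 6, and for both the set of 4 lay wholly above the set of 6.

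**Figure D1:**
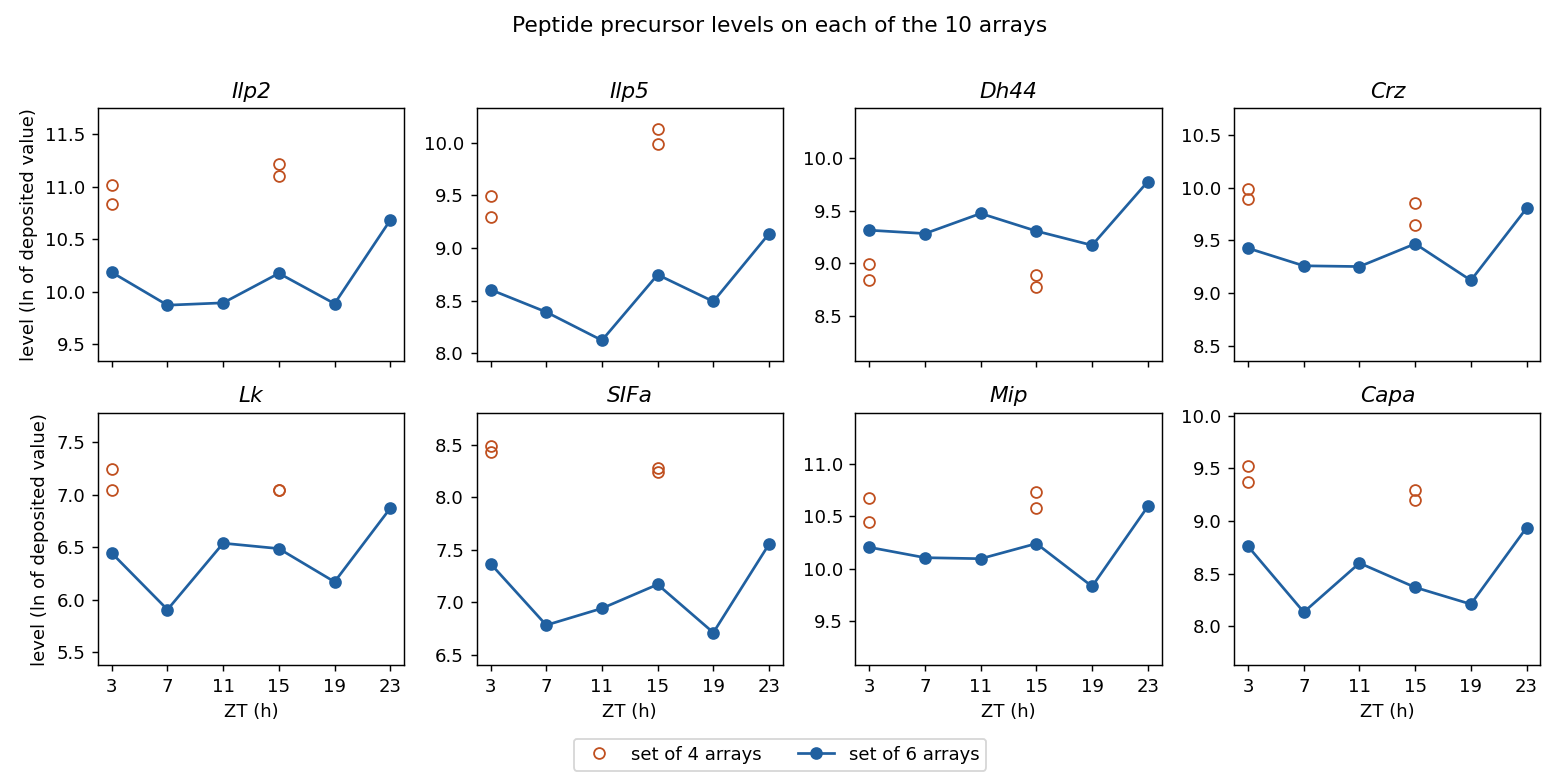
Level (natural log of the deposited value, each panel spanning the same height) of the 8 peptide precursor genes against ZT in hours; open circles are the arrays of the set of 4, filled circles joined by a line those of the set of 6. All 8 lines are highest at ZT23, and the open circles lie above the line at ZT3 and ZT15 for every gene but Dh44. The difference of Dh44 between the sets changed sign with centring on the median of all 18769 probe sets but not with quantile normalization.

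The comparison of ZT15 with ZT3 asks whether peptide transcripts differ between night and day. By convention ZT0 is lights-on, which would place ZT15 in the night and ZT3 in the day. None of the 8 passed the threshold, an adjusted p of 0.05, with the array set as a block (limma), against 20 of 12991 probe sets, or 0.154%, over the whole array. Without the block it was again none of 8, against 0.0308% of the array. By unadjusted p under 0.05, 1 of 8 (Ilp5) passed with the block, against 9.6% of the array. No peptide gene had ZT15 and ZT3 arrays that were free of overlap, against 5.13% of probe sets.

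Ilp5 had the largest difference of the 8. It averaged 9.62 ± 0.762 at ZT15 and 9.13 ± 0.468 at ZT3 (SD, n = 3 each). The fitted difference of 0.49 ± 0.154 (SE), or 1.41-fold, had an adjusted p of 0.424 with the block and 1.00 without it (limma). It was 0.67 within the set of 4 and 0.14 within the set of 6, and the test of that gap between sets gave an adjusted p of 0.672 (limma). Ilp2, from the same cells, differed by 0.15 ± 0.115 (adjusted p 0.759, limma). Within the set of 4 the Ilp2 difference was 0.23, and within the set of 6 it was -0.01.

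The other 6 genes differed by -0.27 to 0.08. Capa averaged 8.95 ± 0.508 at ZT15 and 9.22 ± 0.405 at ZT3 (SD, n = 3 each), a difference of -0.27 ± 0.106 (SE; adjusted p 0.525, limma). SIFa differed by -0.20 ± 0.0895 (adjusted p 0.588, limma), with -0.20 within each set. Crz differed by -0.11 and Mip by 0.08. The small differences of Dh44 (-0.06) and Lk (-0.05) changed sign when arrays were centred on their medians (0.014 and 0.023), and that of Lk also after quantile normalization (0.030). For the 7 genes other than Ilp5, the 95% intervals of the difference lay between -0.53 and 0.44, that is between 0.690 and 1.36-fold. For Ilp5 the interval was 0.10 to 0.88. A miss of the threshold on 6 arrays leaves differences of these sizes possible. The test of whether the difference varied between array sets called 0 of 12991 probe sets (0%; 996, or 7.67%, at an unadjusted p under 0.05, limma) and none of the 8, whose lowest unadjusted p was 0.0942.

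**Figure D2:**
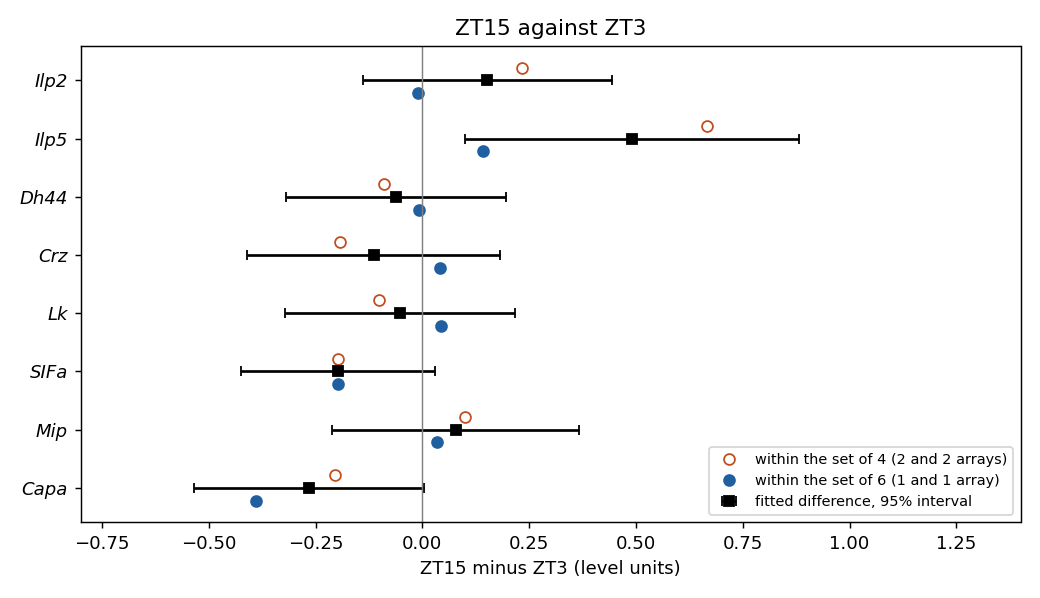
Difference in level, ZT15 minus ZT3, for each gene; squares with bars give the fitted difference with its 95% interval (6 arrays), open circles the difference within the set of 4 and filled circles that within the set of 6. Only the interval of Ilp5 lies wholly above 0, and its adjusted p over all probe sets was 0.424.

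To ask whether the transcripts cycled, a cosine curve with a 24-hour period was fitted over the 10 arrays. Again none of the 8 passed, against 66 of 12991 probe sets, or 0.508%, with the array set block and 0.0385% without it (limma). None had an unadjusted p under 0.05 with the block, against 7.91% of probe sets. Amplitude (fitted peak minus fitted mean) was 0.35 ± 0.158 (SE) for Ilp5, the highest of the 8 over all arrays, with a fitted peak at ZT19.4 (adjusted p 0.803, limma). Ilp2 had 0.23 ± 0.140 and SIFa 0.20 ± 0.121, and Mip, the lowest, had 0.07 ± 0.126. Single arrays decided these values. Leaving out 1 array moved Ilp5 to between 0.24 and 0.59, Ilp2 to between 0.069 and 0.47, SIFa to between 0.10 and 0.40 and Mip to between 0.056 and 0.27, with the high ends without ZT19 and, except for Mip, the low ends without ZT23. The order moved too: without ZT11, Lk (0.34) and Capa (0.31) were above Ilp5 (0.26), and without ZT23 Lk was the lowest (0.017). The median over the 8 was 0.18, against 0.13 over all probe sets tested. The fitted curves rest on ZT3 and ZT15 for 6 of their 10 values.

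Within the set of 6, the single ZT23 array had the highest level of all 8 peptide genes, against 29.2% of probe sets on the array. ZT23 exceeded the mean of the other 5 arrays by 0.47 (Dh44) to 0.68 (Ilp2), with a median of 0.54, against 0.02 over all probe sets tested. The gap from ZT23 to the next highest array was smallest for Capa, 0.18, and largest for Ilp2, 0.50. It exceeded the gene's residual SD in the fit of ZT15 against ZT3 (3 degrees of freedom, 0.0301 to 0.203) in 8 of 8 genes. The share of all probe sets with such a gap was not computed. This is a description and no test of ZT23, since the highest array was picked and the SD rests on few arrays. The order of the other times varied: ZT3 was next for Ilp2, SIFa and Capa, ZT15 for Ilp5, Crz and Mip, and ZT11 for Dh44 and Lk. ZT19 was lowest for Dh44, Crz, SIFa and Mip, 4 of 8, against 21.8% of probe sets. The whole range over the set of 6 was 0.61 for Dh44 and 1.01 for Ilp5, the narrowest and the widest of the 8. Lower in the order, gaps between neighbouring times were often small. Of 5 gaps, those below the residual SD numbered 3 for Ilp2, Ilp5 and Mip and 2 for Dh44, Crz and Lk. Capa had 1 and SIFa, whose residual SD was the smallest, 0. A gap above the residual SD does not by itself separate 2 times.

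Neuron markers moved with this pattern. Of 12 neuron markers, 11 were highest at ZT23 within the set of 6 and the other, VGlut, at ZT11. The mean of the list was 11.04 at ZT23, against 10.43 to 10.68 on the other arrays of the set of 6, a difference of 0.49 from their mean. Gut genes moved the other way, with a mean of 11.89 at ZT23 against 12.37 to 12.85, as did testis genes, with 10.63 against 10.89 to 11.76. When the neuron marker mean of each array was subtracted, a step chosen after seeing the data, none of the 8 peptide genes was highest at ZT23. Then 7 were highest at ZT3 and Ilp5 at ZT15, and ZT23 differed from the mean of the other 5 by -0.019 (Dh44) to 0.19 (Ilp2). The Ilp5 values were nearly equal: 8.543 at ZT15, 8.5428 at ZT3 and 8.5301 at ZT23. The neuron mean of the ZT3 array was low, 10.49, so the step raises that array relative to most others for any gene. It also lowers ZT23 for any gene, by 0.49 against the mean of the other 5 arrays. The loss of the highest place at ZT23 is thus in part set by the step itself. The share of all probe sets highest at ZT3 or at ZT23 after the step was not computed. With 1 array at ZT23, the time of day and the makeup of that sample cannot be told apart.

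**Figure D3:**
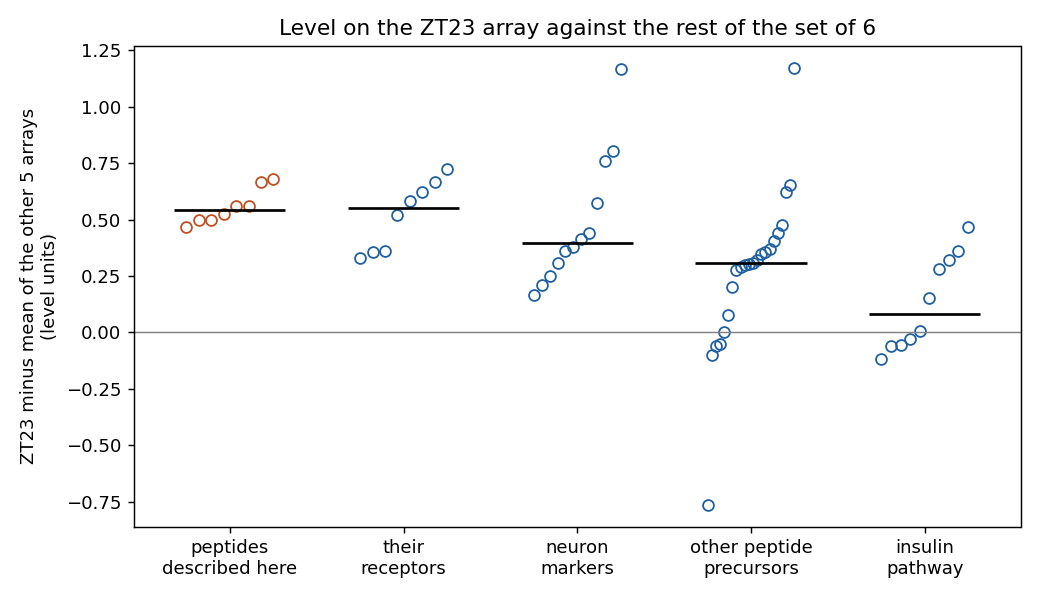
Level on the ZT23 array minus the mean of the other 5 arrays of the set of 6, for each tested gene of 5 lists; black lines are medians. The 8 peptide genes lie between 0.47 and 0.68, their receptors between 0.33 and 0.72, and neuron markers between 0.17 and 1.17. Other peptide precursors lie between -0.76 and 1.17 (median 0.31), and the insulin pathway between -0.12 and 0.47 (median 0.08).

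Between the array sets, 7 of 8 peptide genes had a higher mean on the set of 4, as did 60.3% of all probe sets. The sets were found by clustering these same values, so the differences are a description without a test. Of the 8, 5 (Ilp2, Ilp5, Lk, SIFa and Capa) lay on the set of 4 above all arrays of the set of 6, against 33.3% of probe sets. Without the ZT23 array, left out after seeing the data, Crz and Mip joined them to make 7. This had to follow, since both had overlapped the set of 4 through that array alone. The share of all probe sets in that comparison was not computed, and leaving out an array can raise it but not lower it. A difference above 1 was seen in 2 of 8, SIFa and Ilp5, against 9.38% of probe sets. SIFa had the widest gap, with 8.36 ± 0.118 on the set of 4 (SD, n = 4) and 7.09 ± 0.334 on the set of 6 (SD, n = 6), a difference of 1.27 or 2.42-fold. Ilp5 was at 9.73 ± 0.398 on the set of 4 and 8.58 ± 0.344 on the set of 6, a difference of 1.15 or 2.21-fold. The differences of Ilp2 (0.92), Capa (0.84) and Lk (0.69) were smaller, and those of Crz (0.46) and Mip (0.43) were the smallest of the higher ones.

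Dh44 was at 8.87 ± 0.0928 on the set of 4 (SD, n = 4) and 9.39 ± 0.214 on the set of 6 (SD, n = 6), a difference of -0.51 without overlap, which 22% of probe sets showed in that direction; with arrays centred on their medians the difference was 0.11. That centring raised every difference by 0.63, because the median of all 18769 probe sets was 6.09 on the set of 4 and 6.72 on the set of 6. Medians of the 12991 tested probe sets were nearly equal, 8.17 to 8.25 on the set of 4 and 8.20 to 8.27 on the set of 6. The shift thus appeared only when the probe sets below the filter were counted in the median. Which probe sets carried it was not examined, and centring on the tested ones alone was not run. Relative to that shift the other 7 genes were higher by 1.06 (Mip) to 1.90 (SIFa). Under quantile normalization Dh44 was at -0.55 and the other 7 at 0.39 to 1.44. In each of the 3 scalings Dh44 therefore had the lowest value of the 8. As deposited, the neuron marker list had a median difference of -0.48, with 9 of 12 lower on the set of 4, against 5157 of 12991 probe sets. Centring on the median of all probe sets raises these differences by 0.63 too. The part that male tissue, gut, fat body or neuron content took in these differences was not tested. The array set cannot be told apart from any feature of the samples that went with it.

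**Figure D4:**
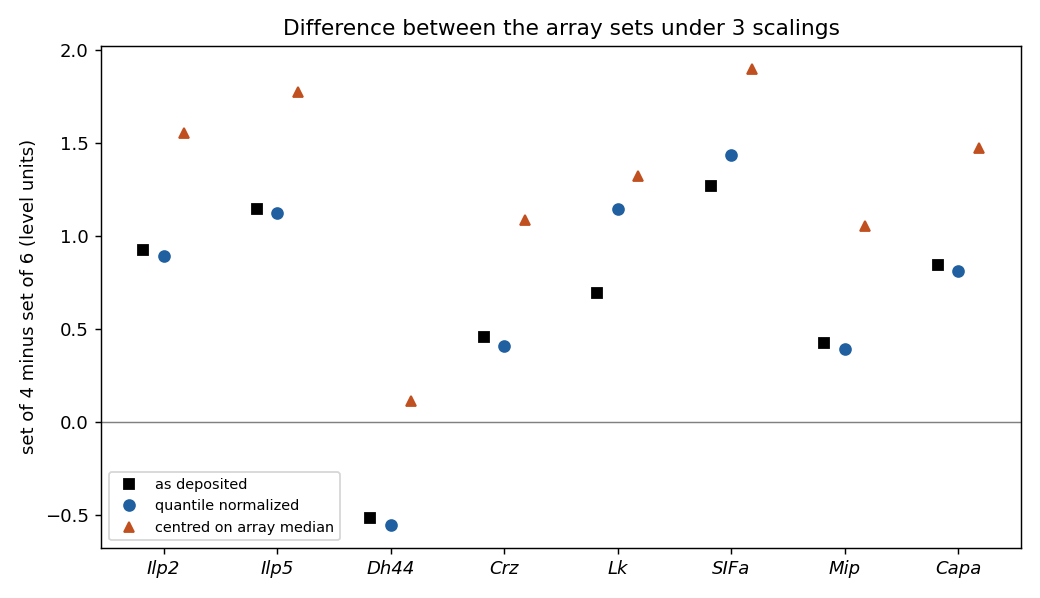
Mean level on the set of 4 minus mean level on the set of 6 for each peptide gene, as deposited (squares), after quantile normalization (circles) and with each array centred on its median (triangles). The median is that of all 18769 probe sets, also those below the filter. Dh44 is below 0 in the first 2 scalings and at 0.11 in the last, while the other 7 genes are above 0 in all 3.

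Genes that act with these peptides also had no member past the threshold, in either the fit of ZT15 against ZT3 or the cosine fit. These lists were counted gene by gene, each gene by its probe set of highest mean. Of 8 measured receptors of the 10 peptides, none passed (limma). SPR, the receptor for myoinhibitory peptide and for the sex peptide of seminal fluid, differed most: its levels were 8.24, 8.31 and 8.5 at ZT15, against 9.65, 9.78 and 8.62 at ZT3. These did not overlap, as for 5.13% of probe sets, and the difference was -1.0 ± 0.219 (SE, adjusted p 0.291 with the block and 1.00 without it, limma). It was -1.31 within the set of 4 and -0.38 within the set of 6. The test of that gap between sets gave an unadjusted p of 0.0158 and an adjusted p of 0.631 (limma). InR differed by -0.38, SIFaR by -0.28 and TkR99D by -0.27, with adjusted p of 0.715, 0.684 and 0.695. SPR also had the largest amplitude, 0.55 ± 0.122, with a fitted peak at ZT4.02 (adjusted p 0.275), ahead of SIFaR at 0.21, TkR99D at 0.19 and InR at 0.18. All 8 receptors were highest at ZT23 within the set of 6, against 29.2% of probe sets. InR was lower on the set of 4 by a difference of -1.54 and Lkr, the leucokinin receptor, higher by 1.10, both without overlap.

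Of the other insulin-like genes, Ilp7 and Ilp8 were measured, and both were below the filter with mean levels of 3.24 and 3.49. Downstream of the receptor, 10 genes of the insulin pathway were tested and none passed. Besides InR, the largest differences between ZT15 and ZT3 were those of foxo (0.17), which encodes the transcription factor that insulin signalling holds in the cytoplasm, Sdr (-0.16), which encodes a secreted binding protein for insulin-like peptides, and the InR substrate chico (0.13). The largest amplitudes were those of Pdk1 (0.31), ImpL2 (0.21), InR (0.18) and Sdr (0.18). Of the 10, InR included, 2 were highest at ZT23, against 29.2% of probe sets. InR was at 7.85 to 8.82 on the set of 4 and 9.33 to 9.96 on the set of 6, and ImpL2, another secreted binding protein, was lower on the set of 4 by a difference of -1.21 without overlap.

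Of 9 tested genes that act on insulin-producing cells, none passed. The largest differences were those of E(spl)mbeta-HLH (0.26), AdipoR (0.23), ey (0.22) and the serotonin receptor gene 5-HT1A (-0.18), and the largest amplitudes those of 5-HT1A (0.23), Sur (0.17), Lgr3 (0.15) and E(spl)mbeta-HLH (0.13). The cytokine gene upd2 was below the filter, with a mean of 2.93.

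Of 12 tested genes for peptide processing, release and breakdown, none passed. The neprilysin genes, which encode peptide-degrading proteases, differed most between ZT15 and ZT3: Nep4 by -0.35 ± 0.101 and Nep1 by 0.35 ± 0.0994 (SE; adjusted p 0.400 and 0.397, limma), followed by IA-2 (-0.28) and Nep2 (-0.16). The largest amplitudes were those of Nep2 (0.25), Nep4 (0.19), Nep1 (0.18) and IA-2 (0.12). The amidating enzyme gene Phm differed by -0.05 and the prohormone convertase gene amon by -0.13. The transcription factor gene dimm, known for setting up neurosecretory cells, was below the filter with a mean of 2.42.

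Among 22 other tested peptide precursors, none passed. CNMa had the largest difference: its levels were 6.99, 8.03 and 8.86 at ZT15, against 7.06, 7.37 and 5.29 at ZT3. ZT15 was above ZT3 within each array set, while over both sets the times overlapped, and the difference was 1.39 ± 0.261 (SE; adjusted p 0.204 with the block and 1.00 without it, limma). Akh, the gene for adipokinetic hormone, differed by -0.81, Nplp4 by -0.24 and Dh31 by -0.23. The largest amplitudes were those of CNMa (0.73), Eh (0.63), Akh (0.52) and Nplp3 (0.43). Of the 22, 14 were highest at ZT23, against 29.2% of probe sets. A higher mean on the set of 4 was found for 17, against 60.3% of probe sets, and 13 of these did not overlap, against 33.3%.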

How the data were processed

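RNA from heads of yw flies was measured on 10 arrays, grouped by the time in their titles. The authors deposited 1 intensity per probe set and array; GCRMA is named in the submitters' processing notes, with its version and settings not given in the sources used here. Their maximum, 8528000, is more than a 16-bit scanner can record (65536 levels) and has a natural log of 15.96. Natural logs were therefore taken and read as GCRMA log2 values. Gene names came from the platform's annotation table, updated by RefSeq gene IDs: of 18769 other than 183 controls, 13647 had 1 symbol, 402 several and 4720 none here. The 12991 with a mean level of at least 4 were tested.

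limma 3.58.1 in R 4.3.3 (lmFit, eBayes, Benjamini-Hochberg over all tested probe sets, threshold 0.05) compared ZT15 with ZT3 on 6 arrays and fitted a 24-hour cosine to 10, each with the array set, found by average-linkage clustering, as a block. The fits were tested on simulated data. Named genes were all peptide genes and, per other list and fit, the 4 largest effects, with others as counts. The members and lists were chosen with earlier results of these data known. Alternatives covered scale, filter, normalization, variance prior, blocks and left-out arrays. The number of arrays limits the precision. Whether same-numbered arrays belong together could not be told from these values, and the main fits did not pair them.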

Additional observations from a re-analysis of the deposited data

How the results depend on the processing

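None of the 8 peptide genes passed the threshold under any of 19 alternatives for ZT15 against ZT3 or 21 for the rhythm (limma); the lowest adjusted p were 0.231 (Ilp5, trend and robust variance prior) and 0.196 (SIFa, without ZT19). On the level scale, Ilp5 ranged from 0.38 to 0.67 for ZT15 minus ZT3 and from 0.24 to 0.59 in amplitude; on the log2(value + 1) scale, whose unit differs, its difference was 0.71. The difference of Lk, -0.05, became 0.030 after quantile normalization, 0.023 with median centring, 0.030 with the neuron marker mean subtracted and 0.019 without ZT3 replicate 1 (-0.10 to 0.019 without 1 array). That of Dh44, -0.06, became 0.014 with median centring and 0.021 with the neuron marker mean subtracted. The Dh44 difference between array sets, -0.51, became 0.11 with centring on the median of all probe sets, tested or not. The ZT23 excess of Dh44, 0.47, became -0.019 with the neuron marker mean subtracted, a step that lowers ZT23 for any gene. After that step 0 in place of 8 peptide genes were highest at ZT23. These causes were not tested.

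Over all probe sets, ZT15 against ZT3 gave 20 calls. Quantile normalization left 13, a trended robust prior gave 102, dropping the array set block gave 4, and the set of 4 alone gave 0 (1345 at an unadjusted p under 0.05). With 1 array removed the calls were 0 to 5. For ZT3 they were 3 (replicate 1 removed), 5 (replicate 2) and 0 (replicate 3), and for ZT15 0 (replicate 1), 3 (replicate 2) and 0 (replicate 3). Without ZT3 replicate 3 or ZT15 replicate 1, the block absorbs the 1 array left from the set of 6. Those 2 fits therefore repeat the set of 4 alone. With the replicate number as a block 0 were called, with the array set also in the model (1148 at an unadjusted p under 0.05) or not (106). Deviations of same-numbered arrays correlated at -0.893 (replicate 1), 0.804 (replicate 2) and -0.903 (replicate 3). These values follow the array sets, since the arrays of replicate 2 share a set and those of replicates 1 and 3 do not. They cannot show whether same-numbered arrays pair. The rhythm gave 66 calls, against 5 with no array set block, 0 from the set of 6 alone (453 at an unadjusted p under 0.05), 35 with the neuron marker mean subtracted, 22 without ZT19 and ZT23, and 13 to 72 with 1 array removed (72 without ZT19, 41 without ZT23, 23 without ZT7 and 13 to 22 without any other single array). Subtracting the neuron marker mean, leaving out ZT19 and ZT23 together in the rhythm, and leaving out ZT23 in the difference between array sets were added after seeing the data.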

Other observations

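Some other peptide genes, picked after their values were seen, separated the array sets by more than any of the 8 described. Akh, which encodes the adipokinetic hormone of the corpora cardiaca, was at 9.26 to 10.91 on the set of 4 and 4.19 to 7.16 on the set of 6. Eh, which encodes eclosion hormone, was at 8.21 to 8.88 on the set of 4 and 4.44 to 6.11 on the set of 6. CCHa2, a peptide gene of fat body and gut, was at 11.22 to 11.49 on the set of 4 and 9.42 to 9.88 on the set of 6. The cause was not tested.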
